A study of Mus musculus with 4 samples.

Results

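The sebaceous gland cells described here are 705 cell barcodes from mouse epidermis, out of 80503 barcodes that passed the same limits on depth and mitochondrial RNA and 109216 barcodes in all. They were picked from their RNA, by a rule that needs at least 1500 gene UMIs (unique molecular identifiers, each marking 1 captured RNA molecule) and at most 15% mitochondrial UMIs. The rule also needs Scd1, a stearoyl-CoA desaturase, at 20 or more UMIs per 10000 and at least 5 UMIs. At least 1 UMI of Pparg, Cidea or Scd3 has to be present, and Ptprc, Col1a1 and Pecam1, which mark immune cells, fibroblasts and endothelial cells, have to be at 0. Control mice were DNp63fl/fl, carrying loxP-flanked alleles of the ΔNp63 isoform of p63. Ablated mice were DNp63fl/fl;K14-CreT2, in which a tamoxifen-dependent Cre is driven by the keratin 14 promoter, active in basal keratinocytes. All groups received tamoxifen by gavage at 200 mg/kg daily for 5 days, and back skin epidermis was taken after 1 day or 1 week. The labels give both sexes, ages of 2 to 17 months and digestion in 0.25% trypsin at 4 or 37 °C, without saying which applied to which library.

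Each of the 4 groups was 1 droplet library, which leaves every difference below without a replicate check or a test, and the intervals given cover counting error only. The 1-day libraries used a 3′ kit and the 1-week libraries a 5′ kit, so ablated and control cells were compared only within a time point. Levels are UMIs of a gene per 1000000 UMIs summed over the sebaceous gland cells of a library (CPM), and ratios are ablated over control on the log2 scale with 95% intervals.

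Sebaceous glands sit beside hair follicles and are renewed by keratin 5- and keratin 14-positive cells at their rim. Sebocytes leaving the rim fill with lipid droplets of triglycerides, wax esters and cholesterol esters, then burst and release the whole cell content as sebum (holocrine secretion). PPARγ, encoded by Pparg, is a nuclear receptor that drives lipid genes in these cells, and Scd1 is needed for normal sebum in mice.

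The libraries differed in depth and make-up in ways that touch the sebaceous gland cells. Over the 1-day control, 1-day ablated, 1-week control and 1-week ablated libraries, in that order throughout, the median sebaceous gland cell held 8368, 4259, 10970 and 2062 UMIs and 2339, 1640, 3106 and 1140.5 genes. The 1-week ablated library stood apart, with 288 of its 354 sebaceous gland cells (81.4%) under 3000 UMIs against 2, 50 and 10 cells in the others. Of these 288 cells 197 held at least 5 UMIs of granular keratinocyte markers. Results that depend on this are therefore also given for cells of at least 3000 UMIs without adipocyte-like barcodes, called deep cells below, a limit added after the data were seen. The 3 adipocyte-like barcodes, with at least 5 UMIs over 6 adipocyte genes, were all in the 1-week ablated library. At 1 day no sebaceous gland cell of either library held an Xist UMI and Y-linked genes gave 206 and 172 UMIs, whereas the labels describe both sexes. At 1 week Xist was at 249 and 82.9 CPM and Y-linked genes at 80.4 and 107 CPM, so the balance of Xist and Y-linked UMIs differed between these 2 libraries. The 1-day pair shared 299 barcode sequences and the 1-week pair 661, none of them of a sebaceous gland cell in both.

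Trp63 (ENSMUSG00000022510, chr16:25683763-25892102 on the plus strand of GRCm38), the targeted gene, gave 273, 94, 71 and 113 UMIs in the sebaceous gland cells. Its level was 186 CPM (165 to 209.7) in 1-day control and 102 CPM (82.8 to 125) in 1-day ablated cells. At 1 week the level was 133 CPM (104 to 167) in control and 74.4 CPM (61.3 to 89.4) in ablated cells. The log2 ratios were -0.86 (-1.22 to -0.52) and -0.84 (-1.28 to -0.39), and -0.88 and -1.82 in deep cells. T cells of the same libraries, which should lack p63, held 357, 97.2, 342 and 99.7 CPM, so the level in sebaceous gland cells lay below that of T cells in 3 libraries and within its counting interval of it in the 1-day ablated one. T cells had median depths of 4341, 4343, 2677 and 2421 UMIs. RNA set free from broken cells can enter any droplet. A loss of the gene within these cells cannot be told apart from a lower level in the free RNA. In the other keratin-rich barcodes, those with at least 10 keratin UMIs that are not sebaceous gland cells, the log2 ratios were -1.82 and -1.59. UMIs of Trp63 in these matrices count all its isoforms, and the ΔNp63 isoform was not counted apart.

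The label was checked against genes that the rule did not name. The genes standing furthest above the other keratin-rich barcodes in every library were led by Hsd3b6, a steroid dehydrogenase, at 313 or more times their level, followed by the channel gene Panx3 at 261 times. Elovl3, a fatty acid elongase, stood at 233 times, Fa2h, a fatty acid 2-hydroxylase, at 229 times, and Soat1, which esterifies cholesterol, at 181 times. Acoxl at 197 times, Gpd1 at 175 times, the wax ester synthase Awat1 at 167 times and the lipase-family gene Pnpla5 at 148 times were also among the 15 leading genes. Each value is the lowest of the 4 libraries, and because the cells were chosen by lipid genes these folds are a description. Scd1 was fixed by the rule and is no check of the label. It was at 6404, 7172, 9264 and 7998 CPM in the sebaceous gland cells against 107, 204, 42.8 and 71.2 CPM in T cells. Of T cells, 1 of 370, 1 of 199, 0 of 246 and 0 of 118 met the Scd1 and Pparg, Cidea or Scd3 limits. Summed T cell markers lay between 9.55 and 18.5 CPM and endothelial markers between 0 and 5.92 CPM, with 7 of 7 endothelial markers at 0 in the 1-day ablated cells. The rule set Ptprc and Pecam1 to 0, so these low sums are no check of the label. Summed adipocyte markers were at 370, 351, 387 and 4093 CPM, against 5.93, 5.58, 12.0 and 112 CPM in the other keratin-rich barcodes. Langerhans cell and macrophage markers were at 67.5, 153, 84.1 and 585 CPM, against 415, 601, 345 and 535 CPM. Summed basal keratinocyte markers were at 3736, 3870.5, 3878 and 6671 CPM. Summed spinous keratinocyte markers (Krt1, Krt10, Krtdap, Dmkn and Sbsn) were at 3114, 10911, 3420 and 4877 CPM, against 22271, 26239.8, 17925 and 15387 CPM in the other keratin-rich barcodes. In the 1-day ablated cells this sum exceeded the Scd1 level. Upper hair follicle markers summed to 2891, 4600, 2532 and 6188 CPM, against 7345, 9009, 6802 and 15675 CPM, and hair follicle bulge markers to 675, 792, 473 and 633 CPM. Granular keratinocyte markers summed to 45.0, 282, 3.74 and 3257 CPM, against 616, 1477, 555 and 5733 CPM. The part of these markers in the results was not tested.

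Markers of the 288 shallow 1-week ablated cells went in part against the label. Their granular sum was 7735 CPM, above that of the other keratin-rich barcodes, and upper hair follicle, spinous and basal markers summed to 9368, 8993 and 8131 CPM, against 7833 CPM for Scd1, Pparg, Cidea and Scd3 together. With every cell thinned to 1500 UMIs, Lor, the loricrin gene of the granular layer, was at 62.9 and Scd1 at 61.0 per 10000, against 29.6 and 2.44 in other keratin-rich barcodes under 3000 UMIs. Sebaceous genes that the rule did not name were present in the same cells, with Fa2h at 29.2 and Soat1 at 14.4 per 10000 against 0.571 and 0.356. These cells thus carried both sets of genes and are counted as sebaceous gland cells by the rule alone. In 1-week ablated cells of at least 3000 UMIs the granular sum was 488 CPM and that of the rule genes 11087 CPM. Among shallow cells of the other libraries, the spinous sum was 13884 CPM in the 50 1-day ablated and 20282 CPM in the 10 1-week control cells, against 6648 and 4539 CPM for the rule genes. Below, the name sebaceous gland cells stands for every barcode that met the rule, and for shallow ones it makes no claim on cell type. Among cells of at least 3000 UMIs, the spinous sum of the 1-day ablated ones was 10504 CPM, above the 8599 CPM of the rule genes.

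Near the limits of the rule, barcodes with Scd1 between 15 and 20 UMIs per 10000 numbered 19, 16, 7 and 6, beside 23, 15, 4 and 14 accepted with 20 to 25. Another 16, 68, 9 and 57 barcodes met the Scd1 limit without a UMI of Pparg, Cidea or Scd3. Accepted cells resting on exactly 1 such UMI numbered 12, 34, 12 and 76. Scd1 per 10000 UMIs had a median of 50.5, 55.2, 59.8 and 61.7 and reached 213, 267, 242 and 263.

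The promoters of the leading genes are shown because the rule gene Pparg encodes a receptor that, as background, binds DNA with its partner RXR at repeats of AGGTCA. RefSeq windows of 250 bases ending at the gene start (GRCm38.p6) were found for 9 of the 15 leading genes. AGGTCA, or TGACCT when read on the other strand, was present in 2 of these 9, against 4607 of 32851 windows of the same length over all genes (14.0%). The 2 windows are printed 5′ to 3′ on the gene's strand with each copy in capitals.
Cyp3a57, a cytochrome P450 gene, chr5:145345019-145345268, plus strand: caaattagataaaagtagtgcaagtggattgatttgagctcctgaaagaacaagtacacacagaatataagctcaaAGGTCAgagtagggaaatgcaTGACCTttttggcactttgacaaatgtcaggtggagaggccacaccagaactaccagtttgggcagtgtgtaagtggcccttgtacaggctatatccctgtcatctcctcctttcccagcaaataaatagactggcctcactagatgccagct
Ces4a, a carboxylesterase gene, chr8:105131550-105131799, plus strand: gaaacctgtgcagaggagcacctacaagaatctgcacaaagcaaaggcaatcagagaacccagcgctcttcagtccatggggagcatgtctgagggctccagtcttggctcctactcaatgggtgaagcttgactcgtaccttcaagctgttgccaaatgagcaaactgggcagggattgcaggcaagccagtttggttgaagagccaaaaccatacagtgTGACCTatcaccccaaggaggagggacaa
The Cyp3a57 window held 2 copies, in opposite orientations, and the Ces4a window 1. A match describes the letters only.

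At 1 week barcodes that met the rule made up a larger share of the ablated than of the control library under both depth limits. Their 1-day shares differed by less than the counting interval. At 1 day they were 151 of 27727 (0.545%, 0.461 to 0.638%) in control and 153 of 30687 (0.499%, 0.423 to 0.584%) in ablated barcodes, which differ by -0.0460 percentage points (-0.165 to 0.0709). At 1 week they were 47 of 11466 (0.410%, 0.301 to 0.545%) in control and 354 of 10623 (3.33%, 2.999 to 3.69%) in ablated barcodes, which differ by 2.92 points (2.57 to 3.30), a ratio of 8.13. The 354 include the 288 shallow cells whose markers went in part against the label. Shares carry exact binomial intervals and differences Newcombe intervals. Among barcodes of at least 3000 UMIs the 1-week shares were 37 of 8488 (0.436%) and 66 of 4083 (1.62%), a ratio of 3.71, and the 1-day shares were 149 of 21994 (0.677%) and 103 of 19505 (0.528%). The 1-week difference among these barcodes was 1.18 points (0.799 to 1.63), of the same direction and smaller. Antibody hashtags of the 1-day libraries, whose meaning the labels do not give, gave shares of sebaceous gland cells of 1.03, 0.354 and 0.373% in control and 0.510, 0.532 and 0.0994% in ablated barcodes. Only cells with 1 clear hashtag enter these values and the later hashtag values, 58, 19 and 22 control and 26, 21 and 4 ablated cells. Another 27 control and 35 ablated cells held 2 tags, and 25 and 67 were unclear. The spread between hashtags of 1 library thus exceeded the difference between the 1-day libraries. A share of barcodes depends on which other cells were recovered, and loss of other cells and gain of sebaceous gland cells cannot be told apart.

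**Figure D1:**
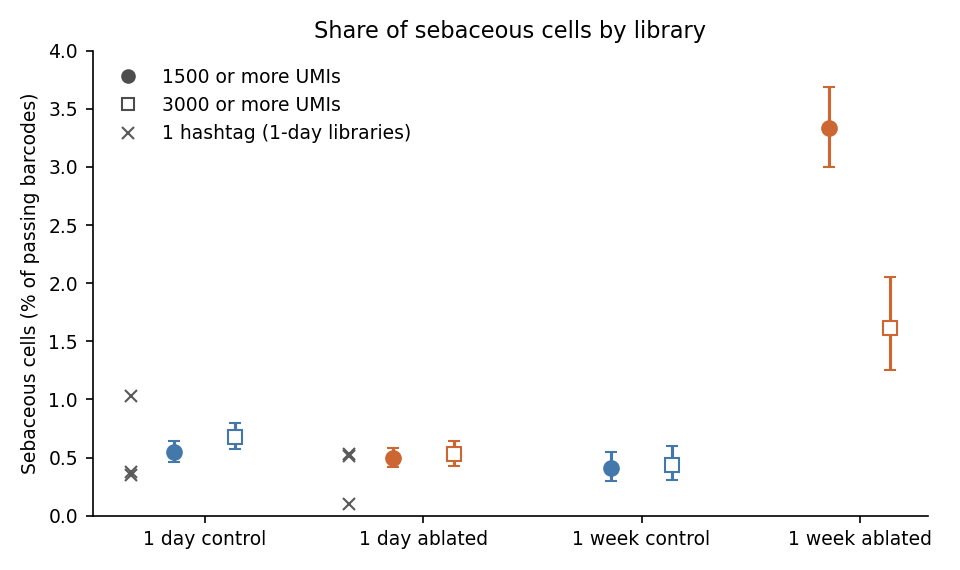
Sebaceous gland cells as a percent of passing barcodes in the 4 libraries, for barcodes of at least 1500 and at least 3000 UMIs, with 95% exact binomial intervals. The 1-week ablated library stands at 3.33% and 1.62%, and the other 3 libraries lie below 1% under both limits.

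**Figure D2:**
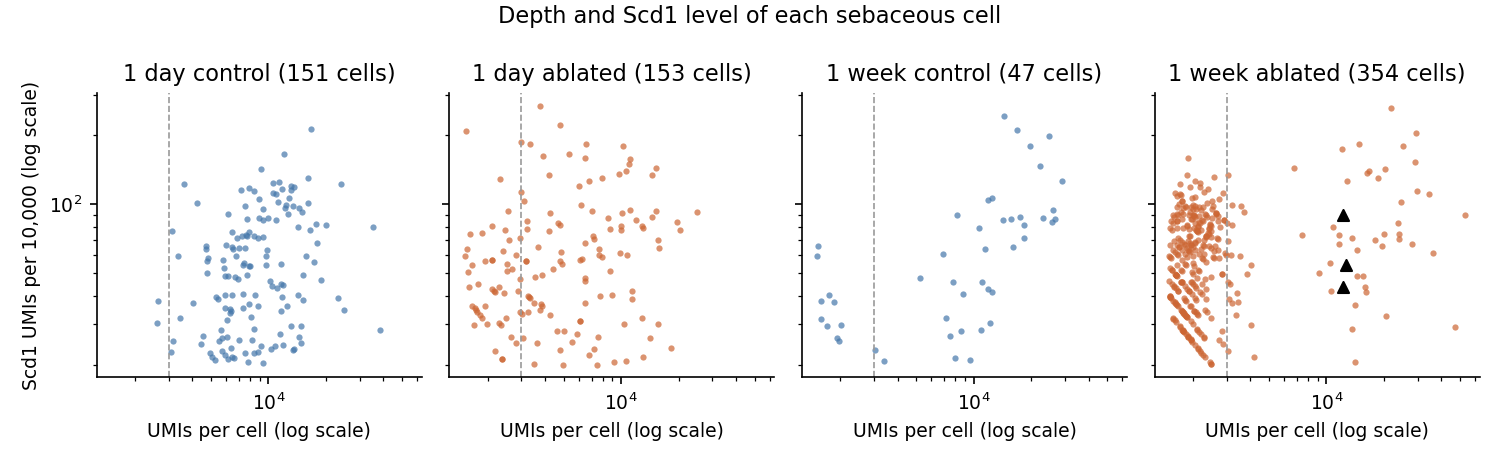
UMIs per cell (x) and Scd1 UMIs per 10000 (y), both on log axes, for each sebaceous gland cell of the 4 libraries, with a dashed line at 3000 UMIs and triangles for the 3 adipocyte-like barcodes. The 1-week ablated cells crowd left of the line, with a median of 2062.

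Genes with at least 50 UMIs over both libraries of a pair were compared, and a gene past 2-fold was counted as different. At 1 day 423 of 4861 genes (8.70%) were past 2-fold, 355 higher (7.30%) and 68 lower (1.40%) in ablated cells. At 1 week it was 635 of 5128 (12.4%), 515 higher (10.0%) and 120 lower (2.34%). When each cell weighed equally (mean of CPM per cell), the 1-week split was 578 higher and 239 lower, so that 70.7% in place of 81.1% of the genes past 2-fold were higher. With totals that leave out rule, mitochondrial and ribosomal protein genes, the median log2 ratio over all genes was -0.05 at 1 day and -0.04 at 1 week, in place of 0.06 and 0.09, so list medians near 0 carry a shift of that size. In deep cells 7.83% of genes were past 2-fold at 1 day, 6.34% higher and 1.49% lower. The 1-week shares in deep cells were 9.75%, 7.38% and 2.37%.

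The level in T cells of the same library was taken as a rough measure of free RNA. No keratin limit was set for T cells, so other RNA can enter it. In 1-week control T cells the basal and adhesion genes compared summed to 20077 CPM, against 6232 CPM in the sebaceous gland cells. Free RNA reaches both, so this measure can overstate it, and what else it holds was not tested. A gene was held to be above the T cell level when its level, in the library with more of it, was at least 2 times that of T cells, a limit chosen after values were seen. At 1 day 995 genes were above, of which 23 (2.31%) were past 2-fold higher and 34 (3.42%) lower, and the other 332 higher genes were not. At 1 week 1447 genes were above, with 128 (8.85%) higher and 58 (4.01%) lower, and 387 higher genes were not. Over all genes compared, 3866 of 4861 at 1 day and 3681 of 5128 at 1 week were not above, so at 1 week the higher genes were near the share of all genes. A gene that differs can pass this limit through the library where it is high alone, so the counts of higher and lower genes among those above are a description and support nothing. With the mean level of both libraries set against the mean of T cells, 893 and 1267 genes were above, with 22 and 104 higher and 26 and 48 lower.

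Among genes outside the lists, the highest 1-day ratios included those of Slurp1, Sprr2a3, Ly6c1, Rgs2 and Hsd17b2. Of these Slurp1, Sprr2a3, Ly6c1 and Rgs2 were below the T cell level in ablated cells, and Hsd17b2 stood above it. Hsd17b2, a steroid dehydrogenase gene, gave 2, 50, 28 and 157 UMIs, and T cells gave 0, 3, 0 and 0. Its 1-day log2 ratio was 5.32 (3.39 to 8.40) and its 1-week ratio 0.98 (0.39 to 1.62), and 3 cells held 22% of the 1-day ablated and 24.8% of the 1-week ablated UMIs. The lowest 1-day ratios outside the lists were those of Ncoa7, Slc7a6, Acot5, Mfsd7a and Fgfbp3, between -3.36 and -2.34. At 1 week the lowest were Iigp1, an interferon-induced GTPase gene, with 52 and 3 UMIs and a log2 ratio of -5.62 (-7.95 to -3.99), and Serpina3b, with 282 and 21 UMIs and -5.25 (-5.97 to -4.61). In the 1-week control cells 3 cells held 100% of the Iigp1 and 59.2% of the Serpina3b UMIs. Outside the lists the highest 1-week ratios were those of Crct1 and Cnfn, both below the T cell level, Pctp, and the adipocyte genes Cfd and Hp. Cfd and Hp gave 0 UMIs in the other 3 libraries and 3705 and 848 UMIs in the 1-week ablated one, of which 3 cells held 99.8% and 99.5%. In deep cells the highest 1-week ratios outside the lists were those of Cldn4 (7.35), Crct1 (6.75), Pctp (6.28), Gjb2 (5.50) and Ephx2 (4.24). Cnfn was at 2.78 there in place of 7.39.

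Genes of the epidermis were mostly at or below the T cell level. For the counts that follow, 7.30% and 10.0% of all genes compared were higher and 1.40% and 2.34% lower. Terminal differentiation genes, which build the cornified layer, had 14 of 15 higher and 0 lower at 1 day and 13 of 18 higher and 2 lower at 1 week, with median log2 ratios of 2.01 and 2.98. None of the 15 was above the T cell level at 1 day and 2 of 18, Flg2 and Lce1m, were at 1 week. In deep cells at 1 week 5 of 11 were higher and 3 lower, with a median of 0.84. Summed granular keratinocyte markers (3 of 7 at 0 in the 1-day control and 5 of 7 in the 1-week control cells) were at 45.0, 282, 3.74 and 3257 CPM, the last made up of 488 CPM in cells of at least 3000 UMIs and 7735 CPM in shallow ones, against 5733 CPM in the other keratin-rich barcodes, and their part in the result was not tested. All wound and simple keratins compared were higher, 4 of 4 and 5 of 5, with medians of 2.85 and 3.33, and none was above the T cell level. Genes of the gland's duct and the junctional zone had 6 of 8 higher and 0 lower and 6 of 9 higher and 0 lower, with 1 gene above at each time. In deep cells at 1 week 3 of 8 were higher, with a median of 0.73 in place of 1.25. Basal and adhesion genes had medians of 0.15 and 0.35 and none above. At 1 week 1 of 11 was higher and 0 lower, and in deep cells 1 of 9 was higher and 2 lower, where the basal keratin genes Krt5 and Krt15 had log2 ratios of -0.97 and -1.67 in place of 0.92 and -0.18. For genes at the T cell level, a difference inside sebaceous gland cells cannot be told apart from one in the free RNA.

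Inflammatory mediators had 8 of 14 higher and 0 lower at 1 day (median 1.1) and 12 of 13 higher and 0 lower at 1 week (median 2.09). Over all genes compared 7.30% and 10.0% were higher and 1.40% and 2.34% lower. In deep cells 7 of 14 were higher at 1 day and 3 of 6 at 1 week, where the median was 1.07. At 1 day 2 genes were above the T cell level, neither of them past 2-fold, Lcn2 with a log2 ratio of -0.50 and Cxcl1 with -0.58, so none of the 8 higher ones was above. The 4 above the T cell level at 1 week were the chemokine genes Cxcl1 and Cxcl10, the cytokine gene Il18 and Lcn2, which encodes the iron-carrier-binding protein lipocalin 2. Lcn2 was at 71.0 and 50.1 CPM in the 1-day control and ablated libraries and 52.4 and 223 CPM at 1 week, and at 1 week it was the only one of the list above in deep cells, with a log2 ratio of 1.80 (1.22 to 2.43). The other keratin-rich barcodes had Lcn2 log2 ratios of 0.84 at 1 day and 4.55 at 1 week, against -0.50 and 2.09 in all sebaceous gland cells. Cxcl1 was at 0 and 38.8 CPM at 1 week and Il18 at 0 and 59.2 CPM, in cells that were mostly shallow. Summed Langerhans cell and macrophage markers were 84.1 and 585 CPM at 1 week, and their part in these values was not tested.

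**Figure D3:**
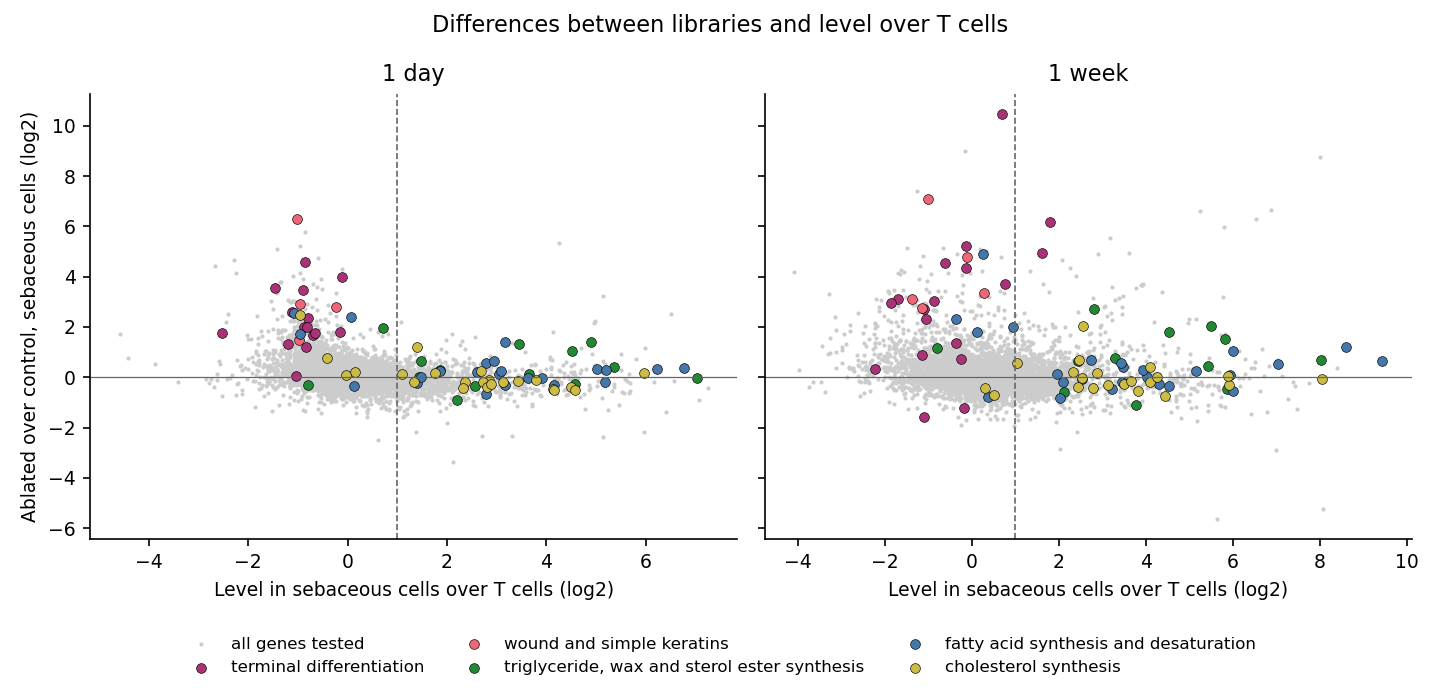
Log2 ratio of ablated over control in sebaceous gland cells (y) against the log2 level over T cells in the library with more of the gene (x), 1 point per gene and 5 lists in colour. Lipid genes lie mostly right of the dashed line at 2 times the T cell level and near 0, and terminal differentiation and wound keratin genes mostly left of it with high ratios.

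The lipid lists, in contrast, were mostly above the T cell level. Of fatty acid synthesis and desaturation genes 19 of 23 were above at 1 day and 19 of 24 at 1 week, with medians over the list of 0.26 and 0.26. For these genes the other keratin-rich barcodes had medians of 0.30 and 0.40. Among those above in sebaceous gland cells, Elovl4 was past 2-fold higher at both times and Elovl3 at 1 week. Elovl6, which lengthens palmitate, was at 3935 and 4793 CPM in the 1-day control and ablated libraries and 4321 and 6272 CPM at 1 week, with log2 ratios of 0.28 and 0.54. Elovl3 was at 411 and 523 CPM in the 1-day control and ablated libraries and 798 and 1856 CPM at 1 week and its log2 ratios were 0.35 (0.17 to 0.52) and 1.22 (1.07 to 1.37). Fa2h had log2 ratios of 0.32 and 0.63. Of the list, 4 of 23 were past 2-fold higher at 1 day and 6 of 24 at 1 week, and 0 were lower at either time. Among all genes compared 7.30% and 10.0% were higher and 1.40% and 2.34% lower. In deep cells 3 of 22 and 4 of 22 were higher, and in the other keratin-rich barcodes 3 and 6 were. Elovl1, which was not above the T cell level, had the highest ratios of the list, 2.54 and 4.91.

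Ester synthesis genes had 4 of 14 higher and 0 lower at 1 day and 5 of 13 higher and 1 lower at 1 week, with medians of 0.21 and 0.70. Over all genes compared 7.30% and 10.0% were higher and 1.40% and 2.34% lower. In the other keratin-rich barcodes the same genes had medians of 0.51 and 0.86, with 2 and 5 higher and 1 and 0 lower. Those higher in sebaceous gland cells and above the T cell level were Agpat2, Awat1 and Awat2 at both times and Agpat3 at 1 week. Agpat2 and Agpat3 encode acyltransferases of glycerolipid synthesis, and Awat1 and Awat2 encode wax ester synthases. Awat2 was at 32.1 and 85.0 CPM in the 1-day control and ablated libraries and 52.4 and 217 CPM at 1 week, with log2 ratios of 1.41 (0.87 to 1.96) and 2.05 (1.49 to 2.66). The interval left 0 out at both times, on 47, 78, 28 and 329 UMIs. Agpat2 was at 24.6 and 62.1 CPM in the 1-day control and ablated libraries and 63.6 and 221 CPM at 1 week, with log2 ratios of 1.34 and 1.79. In contrast Dgat2, which makes triglycerides from diglycerides, was at 162 and 128 CPM in the 1-day control and ablated libraries and 408 and 188 CPM at 1 week, with log2 ratios of -0.34 (-0.67 to -0.02) and -1.11 (-1.37 to -0.85). Soat1, which makes cholesterol esters, had log2 ratios of 0.41 and 0.46. Wax ester synthases and the triglyceride enzyme Dgat2 thus lay on opposite sides of 0 at 1 week. Awat1 (4.01 and 3.73), Awat2 (0.96 and 2.32), Agpat2 (0.84 and 1.02) and Soat1 (1.12 and 2.19) were also higher in the other keratin-rich barcodes. Agpat3 (-1.03 and -0.14) and Dgat2 (0.63 and 0.92) went the other way there. Awat1 and Soat1 stood at least 167 and 181 times lower there than in sebaceous gland cells. The part of sebaceous gland cells missed by the rule and of free RNA in these ratios was not tested.

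Lipid droplet and fatty acid handling genes had 0 of 15 higher and 1 lower at 1 day and 6 of 18 higher and 2 lower at 1 week, with medians of -0.18 and 0.44. Over all genes compared 7.30% and 10.0% were higher and 1.40% and 2.34% lower. The lower genes of the list were Apoe at both times and Apoc1 at 1 week, both apolipoprotein genes. In deep cells at 1 week 4 of 16 were higher and 2 lower, with a median of 0.36. Hilpda, which encodes an inhibitor of droplet lipolysis, was at 82.6 and 63.2 CPM in the 1-day control and ablated libraries and 67.3 and 383 CPM at 1 week, with log2 ratios of -0.38 and 2.51 (2.02 to 3.04). Pnpla2, the triglyceride lipase ATGL, had a 1-week log2 ratio of 1.40 (0.93 to 1.90), and 1.05 in deep cells. Cidec and Fabp4, a droplet protein and a fatty acid carrier, were also past 2-fold at 1 week (3.68 and 5.99). Summed adipocyte markers were at 387 and 4093 CPM there. Without the 3 adipocyte-like barcodes and the shallow cells Fabp4 was at 0 and 6.65 CPM and Cidec at 0 and 16.6 CPM.

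Cholesterol synthesis genes had medians of -0.16 and -0.17 in sebaceous gland cells and 0.52 and 0.27 in the other keratin-rich barcodes. Of these genes 19 of 23 and 19 of 21 were above the T cell level, and among them Dhcr7, the last enzyme of the pathway, was the only one past 2-fold. Dhcr7 was at 25.9 and 59.9 CPM in the 1-day control and ablated libraries and 29.9 and 122 CPM at 1 week, with log2 ratios of 1.21 (0.59 to 1.85) and 2.03 (1.29 to 2.86). No peroxisome gene was past 2-fold at either time (0 of 19 and 0 of 19), and the medians were -0.20 and -0.04. In deep cells 1 of 19 was lower at 1 day, Pex14, a peroxisome biogenesis gene, at -1.03 in place of -0.98. Over all genes compared 7.30% and 10.0% were higher and 1.40% and 2.34% lower. Transcription factors and receptors of the gland had 2 of 15 higher and 0 lower at 1 day and 2 of 15 higher and 1 lower at 1 week. Their medians were -0.08 and -0.24, and 4 of 15 were above the T cell level. The lower one, Mc5r, a melanocortin receptor of sebocytes, was at 47.1 and 55.6 CPM in the 1-day control and ablated libraries and 166 and 59.9 CPM at 1 week, with log2 ratios of 0.24 (-0.31 to 0.78) and -1.47 (-1.91 to -1.04). For this list, in deep cells at 1 week 1 of 14 was higher and 2 lower. Pparg, a rule gene, was at 52.5, 43.6, 140.2 and 109 CPM. Mature sebocyte markers, which share members with the lists above, had medians of 0.18 and 0.41.

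Of 4431 genes compared at both times, 158 were past 2-fold higher at both (56.4% of the 1-day and 44.5% of the 1-week higher genes) and 14 lower at both (24.6% and 13.9%). Over all 4431 genes 6.32% and 8.01% were higher at 1 day and at 1 week, and 1.29% and 2.28% were lower. In deep cells 71 of 3680 genes were higher at both (47.7% and 30.1%) and 11 lower (26.2% and 12.6%). Over all 3680 genes 4.05% and 6.41% were higher and 1.14% and 2.36% lower. The 2 time points have separate control libraries. Of the 158 and 14 genes over all sebaceous gland cells, 22 were also above the T cell level at both times, 12 higher and 10 lower. Their 1-day and 1-week log2 ratios follow. The higher ones were Akr1c18 (3.21 and 1.66), Gpd1 (2.24 and 2.33), Pctp (1.81 and 6.59), Msrb3 (1.60 and 2.00), Abhd4 (1.44 and 1.97), Elovl4 (1.42 and 1.05), Awat2 (1.41 and 2.05), Agpat2 (1.34 and 1.79), Dhcr7 (1.21 and 2.03), Slc25a10 (1.15 and 2.16), Psapl1 (1.12 and 1.27) and Awat1 (1.03 and 1.52). The lower ones were Ncoa7 (-3.36 and -2.86), Fgfbp3 (-2.34 and -2.18), Apoe (-1.54 and -1.27), Epb41l4aos (-1.32 and -1.68), 1600014C10Rik (-1.25 and -1.75), Ank3 (-1.24 and -1.51), Arhgap24 (-1.15 and -1.42), Acadm (-1.13 and -1.30), Slc1a3 (-1.11 and -1.19) and Tmem132a (-1.11 and -1.21). Among genes not described elsewhere, Pctp encodes a phosphatidylcholine transfer protein, Msrb3 a methionine sulfoxide reductase, Ank3 an ankyrin and Slc1a3 a glutamate transporter. Because of how the limit works, 8 of the 22 were under 2 times the T cell level in at least 1 library, and 14 were at or above it in all 4. Levels over T cells, in the order of the libraries, were 0.991, 4.96, 0.470 and 2.50 for Abhd4, 2.20, 1.84, 2.55 and 0.979 for Epb41l4aos and 2.06, 0.843, 2.08 and 0.860 for Ank3, the 3 that were not above by the mean of both libraries. Ncoa7 stood at 0.817 and 0.605 times the T cell level in the ablated libraries, Apoe at 1.82 and 1.3, Arhgap24 at 1.68 in the 1-day ablated, and Pctp at 0.962 and Msrb3 at 1.92 in the 1-week control library. In those libraries these genes stood under the limit of 2 times the T cell level. The part of free RNA in their levels and ratios was not tested. Pctp rested on 1 UMI in the 1-week control cells. Over the 1-day hashtags, the control and ablated ranges overlapped for Ncoa7, Ank3, Arhgap24, Tmem132a, Awat1, Slc25a10, Agpat2, Elovl4 and Msrb3. Ranges were not taken over all genes, and the 22 were picked from ratios of these same cells. Ranges that did not overlap, here and below, are therefore a description. Reads of Epb41l4aos, an antisense gene, cannot be told apart from its partner's where strand was not used, and Akr1c18 has close relatives that could share reads.

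**Figure D4:**
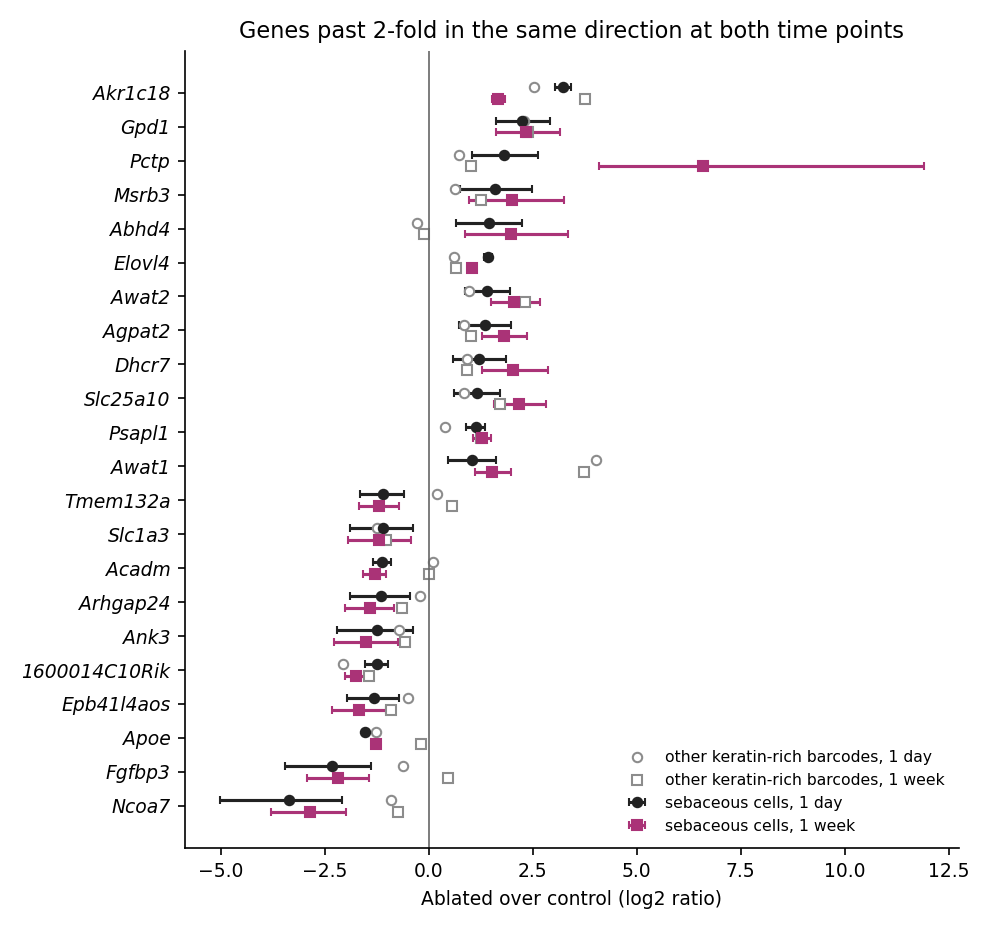
Log2 ratios, ablated over control, of the 22 genes past 2-fold in the same direction at both times and above the T cell level, with 95% counting intervals. Open symbols give the ratio in the other keratin-rich barcodes, which for Acadm and Tmem132a lies near or above 0 while the sebaceous gland cells lie below -1.

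Akr1c18 (chr13:4132615-4150654, minus strand, GRCm38), a 20-alpha-hydroxysteroid dehydrogenase that inactivates progesterone, was at 173 and 1609 CPM in the 1-day control and ablated libraries and 718 and 2272 CPM at 1 week. T cells held 6.85, 45.7, 7.13 and 42.7 CPM. At 1 day the ablated cells were higher in every hashtag, with 99.1 to 186 CPM over the control tags and 1793 to 2763 CPM over the ablated tags. At 1 week the log2 ratio was 1.66 (1.51 to 1.82) and 2.35 in deep cells, but -0.068 when each cell weighed equally and -0.38 when every cell was thinned to 1500 UMIs, so its 1-week direction depended on how cells were weighted. The other keratin-rich barcodes had log2 ratios of 2.52 and 3.74. The part of sebaceous gland cells missed by the rule and of free RNA in those ratios was not tested. The balance of Xist and Y-linked UMIs also differed between the 1-week libraries, and its part in the 1-week Akr1c18 ratio was not tested.

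Gpd1, which makes the glycerol 3-phosphate backbone of glycerolipids, was at 19.1 and 90.5 CPM in the 1-day control and ablated libraries and 29.9 and 151 CPM at 1 week, on 28, 83, 16 and 229 UMIs. Hashtag values at 1 day did not overlap, with 0 to 22.1 CPM over the control tags and 61.2 to 128 CPM over the ablated tags. Gpd1 was also higher in the other keratin-rich barcodes, by log2 ratios of 2.28 and 2.39. Its level there was at least 175 times lower in every library. Those barcodes can include ones that met the Scd1 limit without a UMI of Pparg, Cidea or Scd3. The part of such barcodes and of free RNA in these ratios was not tested. Slc25a10, the mitochondrial dicarboxylate carrier, was at 33.4 and 74.1 CPM in the 1-day control and ablated libraries and 44.9 and 200.1 CPM at 1 week.

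Apoe (chr7:19696109-19699188, minus strand), the apolipoprotein E gene, was the most abundant of the 22 in the control cells, at 14474 and 4968 CPM in the 1-day control and ablated libraries and 12108 and 5026 CPM at 1 week. T cells held 6542, 2724, 4631 and 3865 CPM. Hashtag values at 1 day did not overlap, with 15154 to 16307 CPM over the control tags and 4575 to 6863 CPM over the ablated tags. At 1 day the other keratin-rich barcodes had a log2 ratio of -1.27, near that of sebaceous gland cells, and at 1 week it was -0.20. The difference between the 2 ratios was -0.27 (-0.32 to -0.22) at 1 day and -1.07 (-1.12 to -1.02) at 1 week.

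Acadm, which encodes the mitochondrial dehydrogenase for medium-chain fatty acids, was at 509.6 and 233 CPM in the 1-day control and ablated libraries and 383 and 155 CPM at 1 week, with log2 ratios of -1.13 (-1.35 to -0.91) and -1.30 (-1.58 to -1.03). The other keratin-rich barcodes had ratios of 0.10 and -0.00, and the difference between the 2 was -1.23 (-1.45 to -1.01) at 1 day and -1.30 (-1.58 to -1.02) at 1 week. Hashtag values did not overlap, with 444 to 976 CPM over the control tags and 224 to 372 CPM over the ablated tags. Tmem132a, a transmembrane protein gene, was lower at both times, with 94.2 and 43.6 CPM in the 1-day control and ablated libraries and 129 and 56.0 CPM at 1 week and ratios of 0.19 and 0.56 in the other keratin-rich barcodes. Its hashtag ranges overlapped, with 70.5 to 100.5 CPM over the control tags and 0 to 121 CPM over the ablated tags, and its ratios in deep cells were -0.93 and -0.93, short of 2-fold. Ncoa7 (chr10:30628999-30803326, minus strand), a nuclear receptor coactivator gene, was at 55.9 and 5.45 CPM in the 1-day control and ablated libraries and 76.7 and 10.5 CPM at 1 week, on 82, 5, 41 and 16 UMIs, and its hashtag ranges overlapped. Fgfbp3, which encodes a fibroblast growth factor binding protein, was at 55.3 and 10.9 CPM in the 1-day control and ablated libraries and 80.4 and 17.8 CPM at 1 week, and the other keratin-rich barcodes had ratios of -0.63 and 0.45.

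Elovl4 (chr9:83778692-83806277, minus strand), an elongase that makes very-long-chain fatty acids, was spread unevenly over the sebaceous gland cells. Its level was 942 and 2517 CPM in the 1-day control and ablated libraries and 3701 and 7638 CPM at 1 week, but the 3 cells with most of it held 69.9% and 82.9% of its UMIs in the control libraries and 41.7% and 21.5% in the ablated ones. Cells with at least 10 Elovl4 UMIs per 10000, a limit chosen after values were seen, were counted among deep cells. At 1 day they were 7 of 149 (4.70%, 95% exact binomial interval 1.91 to 9.44%) in control and 32 of 103 (31.1%, 95% exact binomial interval 22.3 to 40.9%) in ablated cells. At 1 week they were 4 of 37 (10.8%, 95% exact binomial interval 3.03 to 25.4%) in control and 41 of 63 (65.1%, 95% exact binomial interval 52.0 to 76.7%) in ablated cells. Among deep cells the ablated libraries thus held more of them, by 26.4 percentage points (17.0 to 36.2) at 1 day and 54.3 points (35.7 to 66.7) at 1 week. Among cells under 3000 UMIs the 1-week values were 7 of 10 (70.0%, 34.8 to 93.3%) in control and 241 of 288 (83.7%, 78.9 to 87.8%) in ablated cells, whose intervals overlap, and the 1-day values were 0 of 2 and 27 of 50. Near the limit, between 5 and 20 per 10000, lay 6, 23, 3 and 2 cells, so at 1 day the class is a range of values, and no cell type is named from it. With a limit of 20 per 10000 the 1-day difference was 15.4 points (7.51 to 24.3). By the limit of 10 T cells gave 4 of 370, 10 of 199, 0 of 246 and 1 of 118, and the other keratin-rich barcodes gave 5.86% and 14.2% at 1 day and 4.51% and 10.5% at 1 week. With every sebaceous gland cell thinned to 1500 UMIs, which left none out, the share with at least 1 Elovl4 UMI was 11.3% (6.70 to 17.4%) and 49.7% (41.5 to 57.9%) at 1 day and 31.9% (19.1 to 47.1%) and 85.0% (80.9 to 88.6%) at 1 week. Without thinning 40 of 151, 104 of 153, 23 of 47 and 315 of 354 cells held one. At most 10% mitochondrial UMIs removed most Elovl4 of the 1-day control cells, and the 1-day log2 ratio was then 5.38 in place of 1.42. Among hashtags the counts were 3 of 57, 0 of 19 and 1 of 22 in control and 4 of 25, 5 of 18 and 1 of 4 in ablated cells, so 1 ablated hashtag rested on 4 cells.

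**Figure D5:**
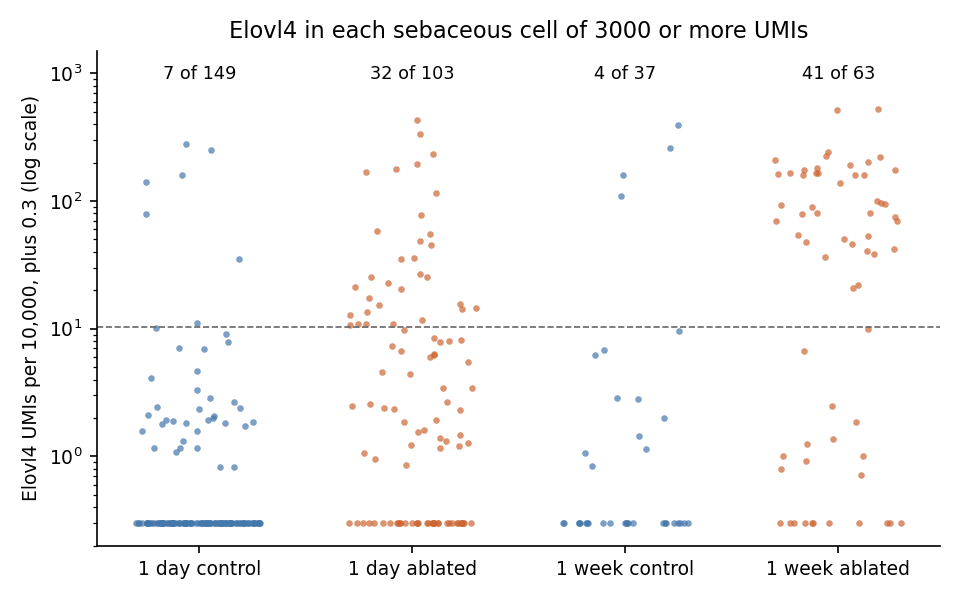
Elovl4 UMIs per 10000 in each deep sebaceous gland cell of the 4 libraries, on a log axis after adding 0.3, with a dashed line at the limit of 10 per 10000; the bottom row holds cells with no Elovl4 UMI. Cells at or above the limit make up 4.70%, 31.1%, 10.8% and 65.1% of the 4 libraries.

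Elovl4-high cells shared other genes in every library. Of 3223 genes with at least 20 UMIs in each library, 42 were at least 2-fold higher and 11 at least 2-fold lower in Elovl4-high than in Elovl4-low deep cells in all 4 libraries. Awat1 was among the higher, with log2 ratios of 5.66, 5.02, 5.07 and 5.98. The peroxisomal oxidase gene Acox3 had 3.26, 4.32, 5.01 and 4.04, Agpat3 had 2.41, 2.36, 2.45 and 2.80, and Elovl5, another elongase, had 2.91, 2.17, 3.92 and 3.11. Serpina3b, a serine protease inhibitor of a family of close copies, had 3.58, 3.67, 3.13 and 2.24. Apoe was among the lower, with -1.47, -1.18, -1.87 and -1.28, as were the fatty acid transporter gene Slc27a1 with -1.27, -2.01, -1.79 and -2.92 and the acyl-CoA synthetase gene Acsl3 with -1.16, -1.85, -2.50 and -2.36. The control values rest on 7 and 4 Elovl4-high cells. In these cells Slc27a1 gave 1 and 1 UMIs and Acsl3 4 and 1. Since the same cells gave the limit and these ratios, they are a description.

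The ablated and control cells were then compared within each class. The classes were cut on Elovl4, which itself differed between ablated and control cells, so they do not hold its level fixed. Elovl4 had log2 ratios of -0.86 (-0.96 to -0.76) and -0.58 (-0.65 to -0.50) in Elovl4-high cells. In Elovl4-low cells it had 1.47 (1.05 to 1.89) and -0.59 (-1.22 to 0.02). Ratios within a class are therefore a description. Awat1 had log2 ratios of -0.37 (-2.87 to 1.58) and -0.72 (-2.94 to 1.26) in Elovl4-low cells and -1.02 (-1.66 to -0.37) and 0.19 (-0.27 to 0.69) in Elovl4-high cells, against 1.06 and 1.81 over all deep cells. Within neither class was Awat1 higher at both times. Awat1 was itself among the genes higher in Elovl4-high cells of every library. A split on Elovl4 therefore cannot tell whether Awat1 differed apart from Elovl4. Its Elovl4-low ratios also rest on at most 10 UMIs in any library, and their intervals held 0. Awat2 had 1.79 (1.13 to 2.46) and 1.60 (0.85 to 2.42) in Elovl4-low and -0.37 (-1.40 to 0.76) and 2.01 (1.002 to 3.24) in Elovl4-high cells. Agpat2 had 1.01 (0.14 to 1.87) and 1.70 (0.98 to 2.46) in Elovl4-low and 0.47 (-0.68 to 1.81) and 1.29 (0.45 to 2.27) in Elovl4-high cells. Agpat3 was near 0 at 1 day, at -0.11 and -0.16, and had 1.51 and 1.85 at 1 week in the Elovl4-low and Elovl4-high class. Of the other genes, Apoe had in Elovl4-low cells -1.25 (-1.30 to -1.20) and -1.22 (-1.29 to -1.16), Gpd1 had 2.24 (1.37 to 3.15) and 2.39 (1.44 to 3.47), and Ncoa7 had -3.39 (-5.70 to -1.79) and -2.87 (-4.57 to -1.53). Akr1c18 had 3.46 (3.26 to 3.66) and 2.45 (2.29 to 2.62), and Slc25a10 had 1.26 (0.63 to 1.90) and 2.51 (1.85 to 3.24). Other genes were nearer to 0 in Elovl4-low cells than over all deep cells. Psapl1 had 0.62 and 0.60, against 1.11 and 1.45 over all deep cells. At 1 week Arhgap24 had -0.49 against -0.999, Ank3 -0.74 against -1.32, Slc1a3 -0.79 against -1.41, Epb41l4aos -0.94 against -1.32 and Fgfbp3 -1.39 against -2.06. At 1 day Ank3 went the other way, at -1.67 against -1.55, and the rest of these genes were again nearer to 0. Acadm had -1.09 (-1.37 to -0.81) and -0.66 (-1.01 to -0.31), against -1.14 and -1.09, and Tmem132a had -0.64 (-1.23 to -0.09) and -0.50 (-1.10 to 0.07), against -0.93 at both times. In Elovl4-high cells, which are few in control, several of these ratios were nearer to 0 or had intervals that held 0. Apoe had -0.96 and -0.63 there, Gpd1 0.81 (-0.25 to 2.03) and 1.86 (0.60 to 3.52), and Psapl1 -0.06 (-0.43 to 0.33) and 0.41 (0.11 to 0.73). Tmem132a had 0.10 (-2.38 to 3.44) and 0.04 (-1.72 to 2.44) there. Acadm, at -1.15 and -1.04, and Akr1c18, at 6.74 and 7.86, were not nearer to 0 in Elovl4-high than in Elovl4-low cells. The Akr1c18 values rest on 1 UMI in the Elovl4-high control cells at each time, with intervals of 4.25 to 12.1 and 5.38 to 13.2. Serpina3b, higher in Elovl4-high cells of every library, was lower in ablated than in control cells of both classes. Its log2 ratios were -2.37 (-4.71 to -0.72) and -5.06 (-7.37 to -3.48) in Elovl4-low cells, on 3 ablated UMIs at each time. In Elovl4-high cells they were -2.29 (-3.16 to -1.46) and -5.95 (-6.76 to -5.23). The other keratin-rich barcodes had -2.98 and -5.60.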

How the data were processed

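The deposited matrices contain UMI counts, whole numbers for each gene in each barcode, per the file headers. The submitters' processing notes name Cell Ranger 5.0.1, Seurat and the mm10 build, and the filters and annotation are not given in the sources used here. The deposited lists hold 109216 barcodes and 32285 genes. Libraries held 179736563, 144323031, 88903603 and 68191870 gene UMIs, and sebaceous gland cells 1465735, 917460, 534785 and 1519089. The members and lists were chosen with earlier results of these data known. Kits were 10x 3′ version 3.1 and 5′ version 1.1.

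Counts were summed over the sebaceous gland cells of a library and divided by their total. Intervals of 95% were exact Poisson for levels, conditional binomial for ratios, Clopper-Pearson for shares and Newcombe for differences. A count of 0 allows up to 3 counts. A gene needed at least 50 UMIs over both libraries, and 2-fold was the limit for a difference. With 1 library per group no test was run. The rule for named genes took from each list the 4 with the most UMIs and the highest and lowest ratio per time, outside the lists the 5 highest and 5 lowest ratios per time and the 10 largest past 2-fold at both times, and the 15 leading genes, and left out rule, mitochondrial and ribosomal protein genes. Genes above the T cell level and those tied to Elovl4 were named after their values were seen. T cells held Ptprc and at least 2 UMIs of Cd3e, Cd3d or Trdc. Hashtag counts of 1-day barcodes were divided by a background of each tag. A hashtag was assigned where the first of 3 was at least 1.5 times the second. The second also had to be at most 1.3 times the third. Doublets were scored with Scrublet (scanpy 1.11.5). Its automatic threshold marked 17.9, 0.00310, 0.0399 and 0% of barcodes. The highest scores, at a rate of 0.8% for each 1000 barcodes of a library, were therefore removed only as an alternative. That rate marked 26.8, 25.8, 20.0 and 14.7% of barcodes and 36, 12, 0 and 21 sebaceous gland cells. Other alternatives changed the depth, Scd1, second-gene and mitochondrial limits, the scaling, the weight of cells, the least UMI count and, after values were seen, the T cell limit. Promoter windows are from RefSeq on GRCm38.p6, and 32158 of 32285 gene IDs matched the reference's gene table. Gene coordinates are on GRCm38. The ratio script was tested on simulated data. Python 3.11.15, numpy 2.4.6, scipy 1.17.1, pandas 2.3.3 and matplotlib 3.10.9 were used.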

Additional observations from a re-analysis of the deposited data

Results flagged for a closer look

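In the 1-week ablated library 76 barcodes of at least 500 and under 1500 UMIs, which the depth limit keeps out, met the rest of the rule, against 3 in the 1-week control library.

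The antibody feature of hashtag 4 gave 2256 control and 1425 ablated UMIs at 1 day, above 0 in both, while hashtags 1 to 3 gave between 3056647 and 6137708 UMIs.

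Among 4431 genes compared at both times, 6 lay past 2-fold in opposite directions. Acot5, which encodes an acyl-CoA thioesterase, was at a log2 ratio of -2.37 at 1 day and 2.54 at 1 week, with 66, 8, 4 and 66 UMIs. Krt10, the keratin of the spinous layer, was at 1.77 at 1 day and -1.58 at 1 week, and at 1.75 and -3.41 in deep cells, those of at least 3000 UMIs without adipocyte-like barcodes. The difference between the time points was not tested, and the time points used different kits.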

How the results depend on the processing

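Each group was 1 library, so leaving out a replicate was not possible. No paired analysis was possible because each group held a single library. Of 198 comparisons of a headline value with an alternative, 160 stayed within the set margin and 38 moved. For values not among the headline ones, 2731 comparisons stayed within it, 612 moved and 2 reversed direction. The 38 and the 2 reversed ones are given below, and the 612 are not. The cause was not tested, and the settings without adipocyte-like barcodes were chosen with values known. The 1-week difference in share was 1.18 points at 3000 or more UMIs, 1.11 also without adipocyte-like barcodes, 1.82 with Scd1 at 50 per 10000 and 2.31 with at least 2 UMIs of Pparg, Cidea or Scd3. The 1-week Trp63 log2 ratio was -1.84 and -1.82 in deep cells with and without those barcodes. The settings also changed how many genes were compared, so each count is given with that number. Genes past 2-fold higher at 1 day numbered 201 of 3221 with Scd1 at 50 per 10000 and 121 of 1292 after thinning to 1500 UMIs. They numbered 677 of 7437 at 20 and 100 of 1613 at 200 UMIs per gene, against 355 of 4861 in the main setting. Lower genes at 1 day numbered 37 of 3221, 19 of 1292, 245 of 7437 and 5 of 1613 in that order, against 68 of 4861. They numbered 104 of 4861 with totals that leave out rule, mitochondrial and ribosomal genes and 141 of 4861 by the mean of CPM per cell. At 1 week higher genes numbered 308 of 1953 after thinning, 1063 of 7825 at 20 and 124 of 1643 at 200 UMIs. At 3000 or more UMIs they numbered 309 of 4004, and 289 of 3918 also without adipocyte-like barcodes, against 515 of 5128 in the main setting. Lower genes at 1 week numbered 239 of 5128 by the mean of CPM per cell and 79 of 1953 after thinning. They numbered 284 of 7825 at 20 and 45 of 1643 at 200 UMIs, against 120 of 5128 in the main setting. The 1-day terminal differentiation median was 2.996 with Scd1 at 50 per 10000 and 3.32 without the highest doublet scores. At 1 week it was 0.79 at 3000 or more UMIs, 0.84 also without adipocyte-like barcodes, 1.65 after thinning and 1.84 at 200 UMIs per gene. The 1-week inflammatory median was 1.49 at 3000 or more UMIs, 1.07 also without adipocyte-like barcodes, 2.83 with Scd1 at 50, 2.91 with 2 UMIs of Pparg, Cidea or Scd3, 1.24 by the mean of CPM per cell and 1.101 after thinning. The 1-day difference in Elovl4-high cells was 15.4 points with a limit of 20 per 10000. Akr1c18 at 1 week turned to -0.068 by the mean of CPM per cell and -0.38 after thinning. The 1-week control had the fewest cells, 47, and the 1-week ablated library the lowest median depth, 2062 UMIs.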

Other observations

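Lysosome and holocrine secretion genes, which act when sebocytes break down, had 2 of 14 higher and 0 lower at 1 day and 3 of 15 higher and 0 lower at 1 week, with medians of 0.24 and 0.31. Of these 4 of 14 and 6 of 15 were above the T cell level, and Ctsl, the gene of the lysosomal protease cathepsin L, was the one past 2-fold among them at 1 week. Ctsl was at 19.8 and 49.0 CPM in the 1-day control and ablated libraries and 14.96 and 282 CPM at 1 week, with a 1-week log2 ratio of 4.24 (3.25 to 5.46). In deep cells at 1 week 0 of 12 genes of the list were past 2-fold, and Ctsl, with 6 and 25 UMIs, fell under the 50 needed. Cell cycle genes were sparse, with 5 of 32 compared at 1 day and 8 at 1 week. They had 0 of 5 higher and 0 lower and 4 of 8 higher and 0 lower, with 1 gene above the T cell level at each time, and in deep cells at 1 week 1 of 4 was higher. Stress and dissociation genes had 3 of 22 higher and 0 lower at 1 day and 4 of 22 higher and 0 lower at 1 week, with medians of 0.36 and 0.38 and 0 and 2 genes above. Over all genes compared 7.30% and 10.0% were higher. Targets of p53 had 2 of 7 higher and 0 lower and 1 of 6 higher and 0 lower, with 0 and 1 above.

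Sebaceous gland cells held a larger share of mitochondrial UMIs than the other barcodes of their library, with medians of 9.86, 8.47, 3.76 and 3.69% against 3.97, 3.99, 1.61 and 2.13% over all passing barcodes.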
